A study of Mus musculus with 6 samples.

Results

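In all, 10 genes of liver-type plasma proteins were followed in the developing pancreas, namely *Alb*, *Afp*, *Ttr*, *Apoa1*, *Apoa2*, *Apob*, *Serpina1a*, *Ahsg*, *Trf* and *Fgb*. They were chosen by name for their function, and all 10 were found by Ensembl identifier among the 37224 genes of the deposited RNA Seq table. The samples were wild type (wt) embryonic mouse pancreata of the strain given as C57/Bl6J, 3 at 13.5 days post coitum (dpc) and 3 at 15.5 dpc. Each sample was a pool of up to 3 embryos, and no sample carried a transgene, mutation or treatment. The identifiers were ENSMUSG00000029368 for *Alb*, ENSMUSG00000054932 for *Afp*, ENSMUSG00000061808 for *Ttr*, ENSMUSG00000066366 for *Serpina1a* and ENSMUSG00000033831 for *Fgb*, on which most results turn. The comparison asked which of these genes differed between the stages, and whether *Ttr*, which islets also express, parted from the rest.

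Plasma proteins are made and secreted mainly by hepatocytes, and before birth also by the visceral endoderm of the yolk sac. Liver and pancreas both arise from foregut endoderm, and they share transcription factors such as those of the HNF1, HNF4 and FOXA families. HNF1 proteins bind a palindromic motif whose arm is found in the promoters of many hepatocyte genes. In the pancreas, transthyretin, the product of *Ttr*, is a known product of islet cells, and alpha and beta cells contain it.

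The promoters of 8 of the 10 genes were matched in RefSeq (build GRCm38.p6, 250 bases before to 50 bases after the transcription start). Those of *Ttr* and *Trf* were not matched and were not searched. The HNF1 motif arm was searched on both strands as GTTAAT, whose reverse complement is ATTAAC, and as its variant GTTAAC, which reads the same on both strands. At least one of these forms stood in the promoters of *Alb*, *Afp*, *Serpina1a* and *Fgb*. Over all 32851 promoters of that length, 9.85% held either form, 7.1% the first and 3.05% the second. These letters were not in the windows of *Apoa1*, *Apoa2*, *Apob* and *Ahsg*. Because 3 of the 4 genes with these letters, *Afp*, *Serpina1a* and *Fgb*, are those that differed between the stages, their promoters and that of *Alb* are shown, 5′ to 3′ on the strand of the gene, with the motif arms in capitals. The *Alb* window is chr5:90460620-90460919 on the plus strand, and that of *Afp*, its neighbour on the same chromosome, is chr5:90490464-90490763 on the plus strand. The *Serpina1a* window is chr12:103863570-103863869 on the minus strand, and the *Fgb* window is chr3:83049814-83050113 on the minus strand.
Alb: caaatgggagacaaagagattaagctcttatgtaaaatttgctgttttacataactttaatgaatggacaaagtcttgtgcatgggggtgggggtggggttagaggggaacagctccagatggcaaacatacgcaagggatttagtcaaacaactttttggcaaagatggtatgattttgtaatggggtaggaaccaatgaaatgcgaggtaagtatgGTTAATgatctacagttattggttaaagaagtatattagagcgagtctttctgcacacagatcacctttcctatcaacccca
Afp: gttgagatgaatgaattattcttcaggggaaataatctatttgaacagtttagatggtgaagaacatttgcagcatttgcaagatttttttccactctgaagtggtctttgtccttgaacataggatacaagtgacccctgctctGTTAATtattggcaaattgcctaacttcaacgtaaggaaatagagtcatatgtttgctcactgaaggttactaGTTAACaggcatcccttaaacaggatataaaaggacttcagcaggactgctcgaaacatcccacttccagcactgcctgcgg
Serpina1a: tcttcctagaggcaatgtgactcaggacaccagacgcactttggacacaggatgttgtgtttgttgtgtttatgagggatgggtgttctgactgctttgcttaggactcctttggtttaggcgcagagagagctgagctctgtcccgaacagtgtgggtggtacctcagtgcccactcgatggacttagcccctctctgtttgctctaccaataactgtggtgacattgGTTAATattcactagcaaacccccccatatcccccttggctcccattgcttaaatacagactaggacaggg
Fgb: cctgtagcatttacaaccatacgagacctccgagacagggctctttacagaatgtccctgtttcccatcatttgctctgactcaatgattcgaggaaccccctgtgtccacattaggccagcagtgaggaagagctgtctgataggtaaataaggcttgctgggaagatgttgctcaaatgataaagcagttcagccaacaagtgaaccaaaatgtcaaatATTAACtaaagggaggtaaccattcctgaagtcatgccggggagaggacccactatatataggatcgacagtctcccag

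With the start site as base 0, the motif arm of *Alb* lay at -32 to -27. *Afp* held the first form at -105 to -100 and the second at -32 to -27. In *Serpina1a* the motif arm lay at -21 to -16, and in *Fgb* it lay at -29 to -24, read from the opposite strand. The promoters of *Serpina1b*, *Serpina1c*, *Serpina1d* and *Serpina1e*, the close copies of *Serpina1a*, each held the first form as well. These matches describe letters in the promoters, and binding was not measured here. A link between these letters and the stage differences was not tested.

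The libraries held 10546028 to 16389237 counts, and 15578 genes passed the filter on low counts and were tested with edgeR's quasi-likelihood test. A gene was called at an adjusted p (Benjamini-Hochberg over all genes tested) at or below 0.05. Of all genes tested, 11.6% were called higher at 15.5 dpc and 10.7% lower. In 22.8% all samples of 15.5 dpc lay above those of 13.5 dpc, and in 23.6% all lay below. The samples of 15.5 dpc were not alike in how counts varied with exon length. The rank correlation of the log2 deviation of a gene with its exon length was -0.522 in replicate 1, 0.345 in replicate 2 and -0.323 in replicate 3, against 0.242 to 0.431 at 13.5 dpc. Replicates 1 and 3 of 15.5 dpc therefore had more of their counts on short transcripts, and replicate 1 the most.

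Of the 10 genes, 9 passed the filter. Of these, 3 were called lower at 15.5 dpc, namely *Serpina1a*, *Fgb* and *Afp*, and 0 were called higher. At an unadjusted p under 0.05 the edgeR test gave 4 lower and 0 higher, the further one being *Apoa1*, and DESeq2 called these 4 lower and 0 higher at an adjusted p at or below 0.05. The stages did not overlap in these 3 called genes, and they overlapped in the other 6. The median log2 fold change of the 9 genes was -0.61, against -0.01 for all genes tested. In bulk samples such as these, fewer cells of a type and less RNA per cell cannot be told apart.

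**Figure D1:**
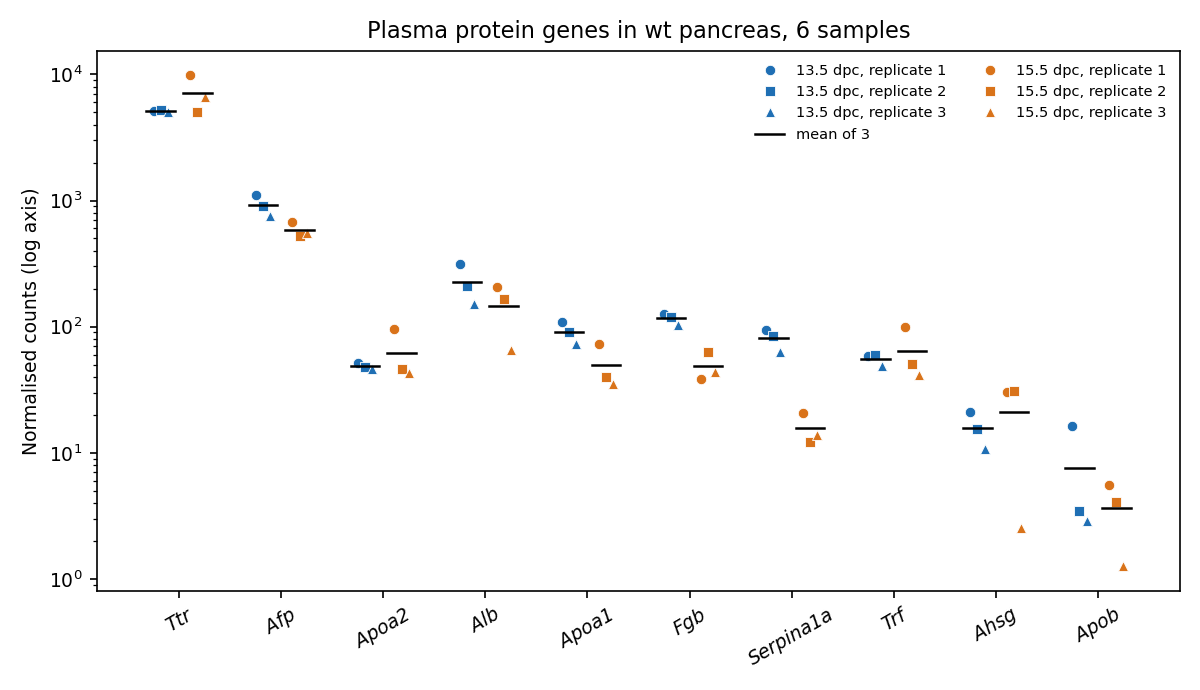
Normalised counts (log axis) of the 10 plasma protein genes in each of the 6 samples, ordered by mean level per exon length, with 13.5 dpc in blue, 15.5 dpc in orange, a symbol for each replicate and a bar at the mean of 3. *Ttr* lies at 5006 or above in every sample, whereas *Serpina1a* and *Fgb* lie lower in all 15.5 dpc samples, and *Ttr*, *Apoa2* and *Trf* are highest in 15.5 dpc replicate 1.

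Levels of different genes were compared per length, as counts per kilobase of exon per 1000000 effective counts. At 13.5 dpc *Ttr* led with 333 ± 8.09 (SD, n = 3), followed by *Afp* with 35.0 ± 6.81 and *Alb* with 8.69 ± 3.23. *Apoa2* stood at 7.17 ± 0.447, *Apoa1* at 5.78 ± 1.15, *Fgb* at 5.61 ± 0.595 and *Serpina1a* at 3.48 ± 0.680. *Trf* at 1.33 ± 0.144, *Ahsg* at 0.844 ± 0.274 and *Apob* at 0.0430 ± 0.0435 closed the order. Neighbours from *Alb* to *Fgb* overlapped in their ranges, so that their order is not beyond the spread, whereas the other neighbours did not overlap.

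At 15.5 dpc the per-length levels were 466 ± 159 (SD, n = 3) for *Ttr* and 22.1 ± 2.97 for *Afp*, and again neither overlapped with the gene next in order. *Apoa2* at 9.05 ± 4.35, *Alb* at 5.68 ± 2.83, *Apoa1* at 3.17 ± 1.33 and *Fgb* at 2.33 ± 0.597 came next. *Trf* at 1.53 ± 0.750, *Ahsg* at 1.14 ± 0.869 and *Serpina1a* at 0.675 ± 0.195 followed. Each neighbour from *Apoa2* down to *Serpina1a* overlapped with the next, and *Apob* stood apart at 0.0206 ± 0.0124. *Serpina1a* thus moved from the place 7 to the place 9 of the order. Among all genes tested, *Ttr* lay at percentile 99.4 at both stages, *Afp* went from percentile 87.6 to 77.2 and *Serpina1a* from 32.2 to 10.1.

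*Ttr*, which encodes the carrier of thyroxine and of the retinol-binding protein, had 5111, 5255 and 5006 normalised counts in replicates 1, 2 and 3 at 13.5 dpc. At 15.5 dpc it had 9831, 5022 and 6660. Replicates 1 and 3 of 15.5 dpc lay above every earlier one, whereas 15.5 dpc replicate 2 lay among the earlier samples, so the stages overlapped. The log2 fold change of *Ttr* was 0.48 ± 0.22 (SE) and was not called (edgeR, adjusted p = 0.152). Without 15.5 dpc replicate 2 it was 0.70 with an adjusted p of 0.00561, and without 15.5 dpc replicate 1 it was 0.19 with an adjusted p of 0.250. After the trend with exon length was removed from each library, *Ttr* stood at 7360, 5452 and 6231 at 15.5 dpc against 5367 to 5621 at 13.5 dpc, with a log2 fold change of 0.20 (adjusted p = 0.191). The spread of *Ttr* was 2.43% of its mean at 13.5 dpc and 34.1% at 15.5 dpc.

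*Ttr* held most of the counts of the 10 genes in every sample. Its share was 72.9%, 77.4% and 80.0% at 13.5 dpc and 88.8%, 84.3% and 89.3% at 15.5 dpc. *Rbp4*, whose product travels in plasma bound to transthyretin and which is named here for that partnership, was at a per-length level of 108 at both stages, and the ratio of *Ttr* to *Rbp4* was 2.98 to 3.16 at 13.5 dpc and 3.62 to 4.79 at 15.5 dpc. Relative to the alpha cell hormone gene *Gcg*, the level of *Ttr* was 0.384 to 0.413 at 13.5 dpc and 0.561 to 0.813 at 15.5 dpc. Both ratios were higher in all later samples. Relative to *Chga*, a gene of all endocrine cells, the level of *Ttr* was 2.93 to 3.17 at 13.5 dpc and 2.72 to 3.42 at 15.5 dpc, and these overlapped. None of these ratios was tested.

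To see whether *Ttr* parted from the rest, the log2 ratio of its normalised counts to those of each other gene was taken within each sample. Against *Serpina1a* this ratio was 5.77, 5.95 and 6.31 at 13.5 dpc and 8.89, 8.68 and 8.91 at 15.5 dpc, a rise in the mean of 2.82. Against *Fgb* the mean rose by 1.72, from 5.47 ± 0.14 to 7.19 ± 0.83 (SD, n = 3), against *Apoa1* by 1.36, from 5.85 ± 0.28 to 7.20 ± 0.32, and against *Afp* by 1.08, from 2.49 ± 0.27 to 3.57 ± 0.31. In these 4 of the 9 ratios all later samples lay above all earlier ones, as they did for 33.0% of the ratios of *Ttr* to all other genes tested. The exact permutation test (two-sided) gave p = 0.1 for each, the smallest value that 3 samples against 3 allow, and 0.225 after adjustment over the 9 ratios, so that no ratio could pass 0.05.

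The ratios to the other 5 genes overlapped between the stages. Against *Alb* the difference of the means was 1.14, with 4.02 to 5.06 at 13.5 dpc and 4.91 to 6.67 at 15.5 dpc. The ratio to *Apoa2* was 6.72 ± 0.09 and 6.91 ± 0.32 (SD, n = 3), and the ratio to *Trf* was 6.53 ± 0.13 and 6.87 ± 0.40. The ratios to *Apob* and *Ahsg* rest on few counts, and their differences of 1.26 and 0.62 compare with SDs of up to 1.38 and 2.09. *Ttr* therefore parted from all 9 genes in its level. In its stage ratio *Serpina1a*, *Fgb*, *Apoa1* and *Afp* were without overlap, to be read beside the 33.0% over all other genes tested. With the length trend removed, the ratio to *Apoa2* was without overlap as well.

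**Figure D2:**
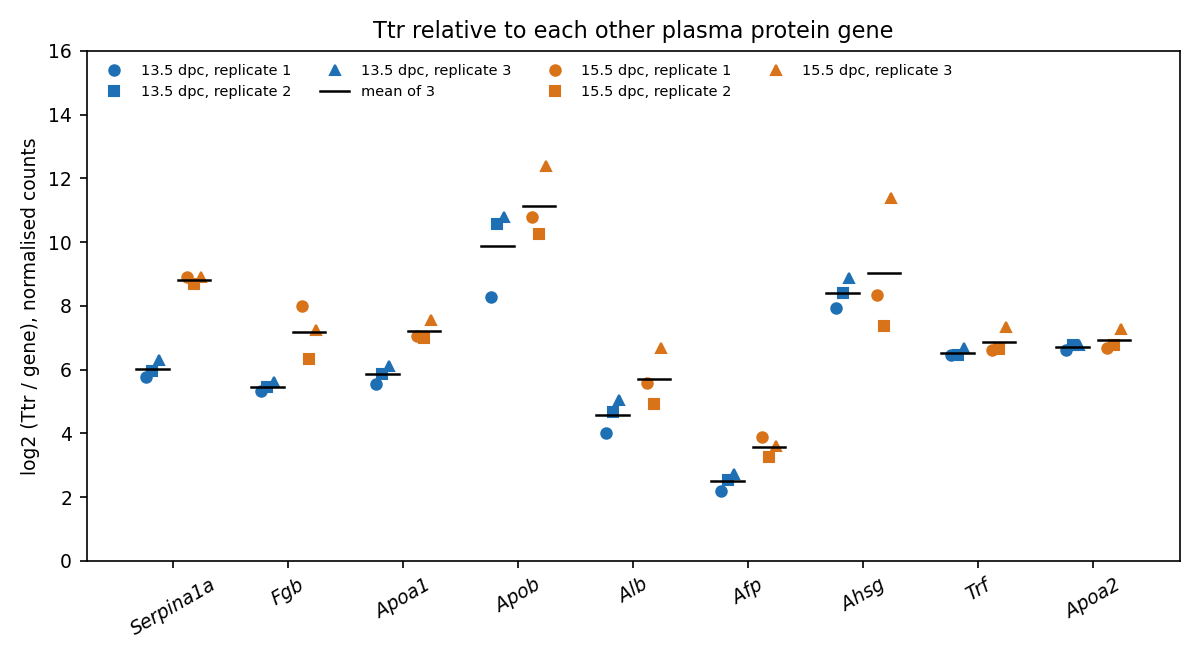
log2 ratio of *Ttr* to each other plasma protein gene in normalised counts, with the 3 samples of 13.5 dpc in blue, the 3 of 15.5 dpc in orange and a bar at each mean. The stages are apart for *Serpina1a*, *Fgb*, *Apoa1* and *Afp* and overlap for *Apob*, *Alb*, *Ahsg*, *Trf* and *Apoa2*.

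The genes whose log2 CPM over the 6 samples was most like that of *Ttr*, among 11273 genes with a mean of at least 100 normalised counts, were *Gss* with a Pearson r of 0.9996, *Naxd* with 0.9995, *Gfer* with 0.9989, *Sh3bgrl3* with 0.9988 and *Mrpl14* with 0.9987. For *Alb* they were *Zfp777* with 0.955, *Hdac5* with 0.953, *Tchp* with 0.943, *Hgsnat* with 0.928 and *Hebp2* with 0.925. These correlations describe 6 points that share stage and library, and no gene of the islet list was among the 5 named for *Ttr*. Between *Ttr* and the other tested genes of the 10, r was 0.84 for *Apoa2* and 0.70 for *Trf*, and it was -0.79 for *Fgb* and -0.45 for *Serpina1a*.

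*Alb* encodes serum albumin, the main protein of adult plasma, and *Afp* its fetal counterpart from the same gene cluster on chromosome 5. *Afp* had 1114, 901 and 756 normalised counts at 13.5 dpc and 673, 525 and 554 at 15.5 dpc. Every later sample lay below every earlier one. The log2 fold change was -0.66 ± 0.17 (SE) and was called (edgeR, adjusted p = 0.0292). The call was lost, in the same direction, without 13.5 dpc replicate 1 (adjusted p = 0.106), without 13.5 dpc replicate 2 (0.0917) and without 15.5 dpc replicate 3 (0.113).

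*Alb* had 314, 208 and 150 normalised counts at 13.5 dpc and 208, 167 and 65.5 at 15.5 dpc. The samples within a stage differed more than the stage means did, with a spread of 37.1% and 49.9% of the mean. The log2 fold change was -0.61 ± 0.42 (SE) and was not called (edgeR, adjusted p = 0.308). Without 13.5 dpc replicate 1 it was -0.29, without 15.5 dpc replicate 3 it was -0.26 and without 15.5 dpc replicate 1 it was -0.90. Per length, *Afp* exceeded *Alb* in each of the 6 samples, with ratios of 3.47, 4.24 and 4.93 at 13.5 dpc and 3.17, 3.08 and 8.29 at 15.5 dpc.

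*Serpina1a* encodes alpha-1-antitrypsin, the plasma inhibitor of neutrophil elastase. It had 93.9, 84.9 and 63.2 normalised counts at 13.5 dpc and 20.8, 12.3 and 13.9 at 15.5 dpc. All later samples were well below the earlier ones. Its log2 fold change was -2.38 ± 0.27 (SE), 5.20-fold lower at 15.5 dpc, the largest change among the 9 genes (edgeR, adjusted p = 0.00155). Of its windows of 50 bases, 57.6% also occur in another gene, so that its count alone is uncertain.

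The mouse carries several copies of this gene in a cluster on chromosome 12, and *Serpina1a* held only 1.99% to 3.03% of the counts of the 5 copies. *Serpina1c* was the highest of them per length, with 62.4 ± 7.90 (SD, n = 3) at 13.5 dpc and 18.3 ± 3.07 at 15.5 dpc. All 4 other copies fell and none overlapped between the stages. The log2 fold changes (edgeR) were -2.08 for *Serpina1b* with an adjusted p of 0.000472, -1.77 for *Serpina1c* with 0.000803, -2.13 for *Serpina1d* with 0.00102 and -3.27 for *Serpina1e* with 0.000257. Summed over the 5 copies, the family had 3107, 2798 and 2449 normalised counts at 13.5 dpc and 710, 616 and 535 at 15.5 dpc. Only uniquely aligned reads were counted, so that the sum leaves out reads shared between the copies. Windows of 50 bases that also occur in another gene made up 29.5% in *Serpina1b* and up to 74.2% in *Serpina1c*. The shares and the order of the copies are therefore uncertain. *Serpina1c* also shares 429 exon bases with *B430119L08Rik* on the opposite strand. The summed family fell by 2.17 on the log2 scale (edgeR, adjusted p = 0.000356).

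*Fgb* encodes the beta chain of fibrinogen, the precursor of fibrin. It had 127, 120 and 103 normalised counts at 13.5 dpc and 38.8, 62.4 and 44.1 at 15.5 dpc. The stages were apart, and the log2 fold change was -1.24 ± 0.20 (SE), 2.37-fold lower at 15.5 dpc (edgeR, adjusted p = 0.0063). *Fgb* was called lower in every alternative run, and *Serpina1a* in all but the study's own thresholds, which ask for over 100 normalised counts. Fibrinogen is assembled from 3 chains, and the genes of the others, named for that reason, were much lower. *Fga* had 21, 16 and 10 deposited counts at 13.5 dpc and 5, 11 and 2 at 15.5 dpc, and *Fgg* had 30, 15 and 14 and then 8, 4 and 4. Neither was called, with log2 fold changes of -0.85 (adjusted p = 0.283) and -1.33 (adjusted p = 0.123). Per length, *Fgb* was 11.3 to 35.7 times as high as *Fga* and 3.33 to 14.5 times as high as *Fgg* across the 6 samples.

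The apolipoproteins carry lipid in plasma, *Apoa1* and *Apoa2* as the main proteins of high-density lipoprotein and *Apob* as the scaffold of low-density particles. *Apoa1* had 108, 90.0 and 72.6 normalised counts at 13.5 dpc and 73.4, 39.9 and 35.3 at 15.5 dpc. Only 15.5 dpc replicate 1 reached into the earlier range. The log2 fold change of -0.88 ± 0.29 (SE) was not called (edgeR, adjusted p = 0.0694), but without that sample it was -1.25 with an adjusted p of 0.00417. It was also called with the length trend removed (-1.13, adjusted p = 0.00566).

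*Apoa2* had 51.9, 48.0 and 46.0 normalised counts at 13.5 dpc and 95.5, 46.0 and 42.8 at 15.5 dpc. One sample, 15.5 dpc replicate 1, was high and the other 5 lay within 42.8 to 51.9. Its log2 fold change of 0.32 ± 0.31 (SE) was not called (edgeR, adjusted p = 0.470), and it turned to -0.12 without that sample and to -0.07 with the length trend removed. *Apoa2* is the shortest of the 10 genes, with 537 exon bases. Per length, *Apoa2* was 1.10 to 1.46 times *Apoa1* at 13.5 dpc and 2.66 to 3.00 times at 15.5 dpc, without overlap, and this ratio was not tested.

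*Apob* was near the limit of detection, with 18, 4 and 4 deposited counts at 13.5 dpc and 4, 4 and 1 at 15.5 dpc, and it did not pass the filter. The exact 95% Poisson interval, which covers counting error only, was 10.7 to 28.4 for the 18 counts and 1.09 to 10.2 for 4 counts. *Apob* has 13934 exon bases, so that its level per length was the lowest of the 10 genes at both stages. Summed over the 3 samples of a stage, *Apob* had 26 counts at 13.5 dpc, most of them in replicate 1, and 9 at 15.5 dpc. A stage difference of *Apob* beyond the spread of the samples was not seen at these counts, and the part of depth was not tested. The genes for assembly and editing of ApoB particles were present in the same samples. All 10 passed the filter, 3 rose and 0 fell (by the edgeR test, as were the counts of all lists that follow), with a median log2 fold change of 0.26. At an unadjusted p under 0.05 edgeR gave 4 higher and 1 lower, and DESeq2 called 3 higher and 1 lower. Those that rose were *P4hb*, the beta subunit of prolyl 4-hydroxylase and of the microsomal triglyceride transfer protein, by 1.13 (adjusted p = 0.00215), the disulphide isomerase gene *Pdia3* by 0.63 (0.00878) and *Dgat2*, for triglyceride synthesis, by 0.61 (0.0187). *Sar1b*, for the export of vesicles from the endoplasmic reticulum, was at 31.5 and 42.1 per length and was not called, although without 15.5 dpc replicate 2 it was (0.59, adjusted p = 0.00625). *P4hb* and *Pdia3* also serve the folding of secreted proteins in general.

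*Trf* encodes transferrin, the iron carrier of plasma. It had 58.3, 60.0 and 48.8 normalised counts at 13.5 dpc and 99.6, 50.1 and 41.6 at 15.5 dpc. As with *Apoa2*, only 15.5 dpc replicate 1 was high. The log2 fold change was 0.18 ± 0.32 (SE, edgeR, adjusted p = 0.700) and turned to -0.26 without that sample. Of its 3310 exon bases, 2108 are shared on the same strand with *Gm20425*, which had 0 counts in every sample, so that reads in the shared part may have been set aside and the level of *Trf* is uncertain. Of 11 iron handling genes tested, 1 rose and 1 fell, with a median of 0.20. *Slc11a2*, a transporter of ferrous iron, rose by 0.94 (adjusted p = 0.00123), and *Heph*, a copper-containing ferroxidase, fell by 0.87 (adjusted p = 0.0356). The ferritin chains *Fth1* at 503 and 722 and *Ftl1* at 144 and 184 per length at 13.5 and 15.5 dpc, and the transferrin receptor gene *Tfrc* at 24.9 and 28.5, were not called. Without 15.5 dpc replicate 2 both ferritin chains were called higher (0.70, adjusted p = 0.00411, and 0.55, 0.00313), and without 15.5 dpc replicate 1 so was *Tfrc* (0.26, 0.0397).

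*Ahsg* encodes fetuin-A, a binder of calcium phosphate that is abundant in fetal plasma. It had 23, 18 and 15 deposited counts at 13.5 dpc and 22, 30 and 2 at 15.5 dpc. The sample with 2 counts, 15.5 dpc replicate 3, has an exact 95% Poisson interval of 0.242 to 7.22, below those of the other 15.5 dpc samples. In normalised counts it was also the lowest of the 6 in *Alb*, *Apoa1*, *Apoa2*, *Apob* and *Trf*, but not in *Ttr*, *Afp*, *Serpina1a* and *Fgb*. The highest in *Alb*, *Afp*, *Apoa1*, *Apob*, *Serpina1a* and *Fgb* was 13.5 dpc replicate 1. The log2 fold change of *Ahsg* was 0.47 ± 0.63 (SE) and was not called (edgeR, adjusted p = 0.605). It was 0.0604 without 15.5 dpc replicate 2 and 0.98 without 15.5 dpc replicate 3. Over the 6 samples, the Pearson r of *Ahsg* with *Alb* was 0.82, and that of *Afp* with *Apoa1* and with *Serpina1a* was 0.94 and 0.95. *Apoa2* and *Trf* followed each other with an r of 0.96. These describe points that share stage and library.

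**Figure D3:**
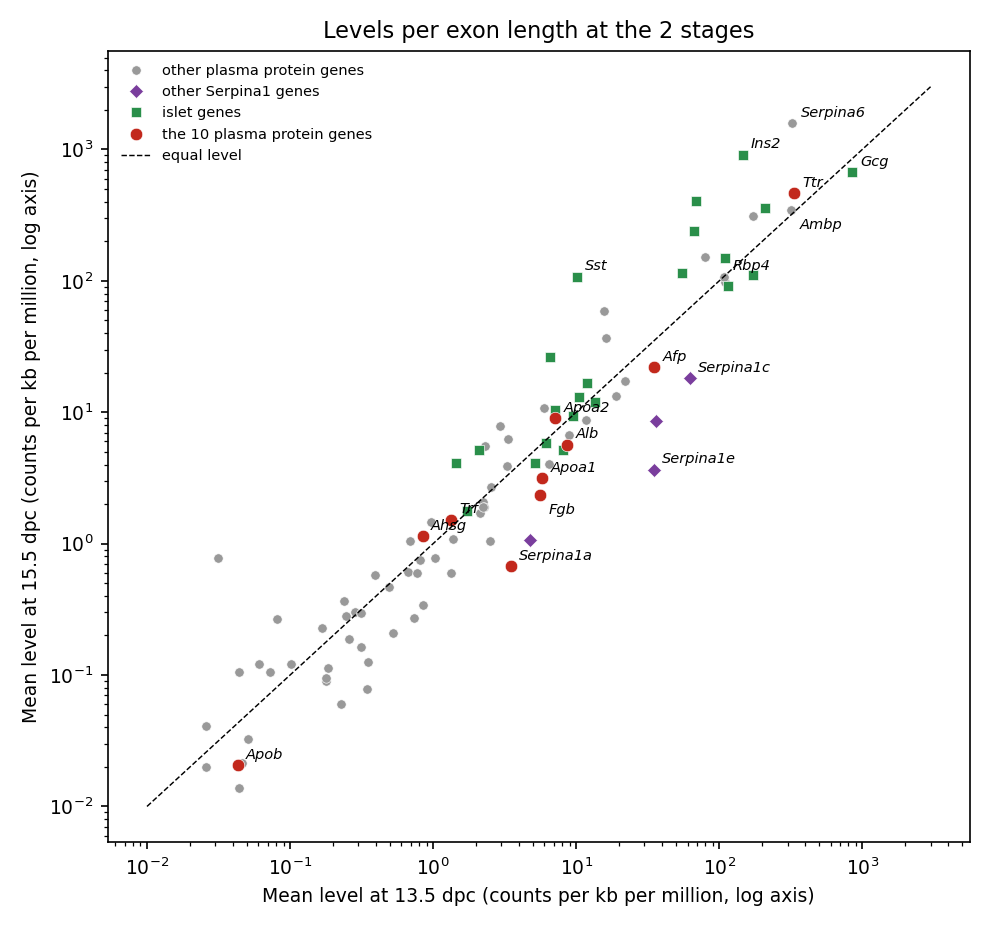
Mean level at 15.5 dpc against that at 13.5 dpc, in counts per kilobase of exon per 1000000 (log axes), for the 10 plasma protein genes (red), the other *Serpina1* copies (purple), other plasma protein genes (grey) and islet genes (green). Genes under 0.01 at either stage are not drawn, *Ttr* lies near *Gcg*, *Ambp* and *Serpina6* at the top, and *Serpina1a*, *Fgb* and *Afp* lie below the line of equal level.

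Other plasma protein genes were counted beside the 10. Over 87 plasma protein genes, *Ttr* had the highest level per length at 13.5 dpc and the second at 15.5 dpc, when *Serpina6*, the corticosteroid-binding globulin gene, was higher. At 13.5 dpc the order was not beyond the spread, since *Ttr* ranged from 325 to 341 and *Serpina6* from 304 to 340, and in replicate 3 *Serpina6* exceeded *Ttr*. *Serpina6* rose from 325 ± 18.7 (SD, n = 3) to 1596 ± 154, a log2 fold change of 2.30 (edgeR, adjusted p = 0.000257). Of 13 carrier, inhibitor and acute phase genes tested, 3 rose and 3 fell, with a median of -0.00264. The vitamin D carrier *Gc* rose by 0.85 (adjusted p = 0.00331), *Igfals*, for the binding of insulin-like growth factors, rose by 0.90 (0.0143) and *Itih1* fell by 1.44 (0.0443). *Ambp*, the precursor gene of alpha-1-microglobulin and bikunin, was at 319 and 347 per length and was not called. Carrier genes thus moved in both directions.

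Of 12 clotting and fibrinolysis genes tested, 4 rose and 3 fell, with a median of -0.23. *Serpinf2*, the plasmin inhibitor, rose by 1.91 (edgeR, adjusted p = 0.00255), *F10*, a clotting protease, by 1.41 (0.00532) and *Vtn*, vitronectin, by 0.92 (0.00438), whereas *Cpb2* fell by 1.23 (0.0173) and *Pros1*, protein S, by 0.42 (0.0431). Of 8 complement genes tested, 1 rose and 1 fell, with a median of 0.25. *Cfi*, the protease that inactivates the complement fragments, rose by 1.18 (adjusted p = 0.00200) and *Masp1* fell by 1.26 (0.0498), whereas *C3* was at 0.960 and 1.46 per length and *C8g* at 2.11 and 1.72, neither called, although *C3* was called higher without 15.5 dpc replicate 3 (0.78, adjusted p = 0.0452). Of 7 other apolipoprotein and lipid transfer genes tested, hepatic lipase *Lipc* rose by 1.26 (0.0239) and *Pltp*, for phospholipid transfer, fell by 0.41 (0.0327), with a median of -0.17. *Apoe*, at 110 and 98.5 per length, and *Apoc1*, at 22.0 and 17.2, were not called, but without 15.5 dpc replicate 1 both were called lower, at -0.34 (adjusted p = 0.0125) and -0.75 (0.00815).

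Of 11 receptor and uptake genes tested, 1 rose and 2 fell, with a median of 0.0365. The high-density lipoprotein receptor *Scarb1* rose by 0.47 (edgeR, adjusted p = 0.00846), whereas *Stra6*, a receptor of the retinol-binding protein, fell by 1.57 (0.000739) and *Lrp1*, an endocytic receptor, fell by 0.78 (0.0412). *Fcgrt*, the receptor that salvages albumin and immunoglobulin, was at 27.2 and 28.0 per length and was not called.

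Of 19 liver-enriched transcription factor genes tested, 7 rose and 2 fell, with a median of 0.37. These factors also act in the pancreas. *Foxa2* rose by 0.40 (edgeR, adjusted p = 0.0317), *Foxa3* by 1.05 (0.00614), *Creb3l3* by 1.65 (0.00234) and the bile acid receptor *Nr1h4* by 1.50 (0.00227), whereas *Tbx3* fell by 1.76 (0.00151). *Nr5a2* was at 24.2 and 24.6 per length and was not called.

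Of 22 islet genes, all of which were tested, 11 rose and 3 fell, with a median of 0.47 and values from -0.66 to 3.41. Without 15.5 dpc replicate 1 this median was 0.43 while *Ttr* was 0.19, and with the length trend removed it was 0.44 while *Ttr* was 0.20. *Sst* rose by 3.41 (edgeR, adjusted p = 0.00108), *Ins2* by 2.64 (0.00222), *Ins1* by 2.57 (0.0022) and *Pyy* by 0.78 (0.0436). *Gcg*, the gene of highest level in the list at 13.5 dpc, with 841 per length there and 674 at 15.5 dpc, was not called (log2 fold change -0.32, adjusted p = 0.114), but it was called lower without 15.5 dpc replicate 1 (-0.44, adjusted p = 0.00692) and with library size only (-0.54, 0.00715). Of the 37 genes of these lists that are named and called, 15 lost the call with at least 1 sample left out, with adjusted p (edgeR) of up to 0.161 and no change of direction. They were *Cpb2*, *Dgat2*, *Fbp1*, *Foxa2*, *Heph*, *Igfals*, *Itih1*, *Lipc*, *Lrp1*, *Masp1*, *Pdia3*, *Pltp*, *Pros1*, *Pyy* and *Scarb1*, and each of them lost it without 13.5 dpc replicate 1.

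A list of hepatocyte markers was looked for in the same samples, most of them not plasma proteins, although *Hpx* and *Itih3* encode plasma proteins and are also in the list of carriers. Of 11 such genes, 4 to 8 per sample had 3 counts or fewer, and their summed counts were 56 to 78 per sample. *Slc10a1*, the bile acid importer, had 1 count in 13.5 dpc replicate 1 and 0 in the other 5 samples. *Cps1*, the first enzyme of the urea cycle, had 0 counts in all samples of 13.5 dpc and 1, 2 and 0 at 15.5 dpc. The asialoglycoprotein receptor gene *Asgr1* and *Cyp2e1* had at most 3 counts. Others were higher, with 3 to 22 counts for *Hpx*, 5 to 19 for *Itih3* and 6 to 14 for *Ttc36*. Only 3 of the 11 passed the filter, and 1 of these, *Creb3l3*, a transcription factor gene that is also in the list of such genes, rose, with 14 to 16 counts at 13.5 dpc and 29 to 37 at 15.5 dpc. In normalised counts the list summed to 49.6 to 66.9 at 13.5 dpc and 70.5 to 105 at 15.5 dpc. Without *Creb3l3* the sums were 38.8 to 54.9 and 31.5 to 65.1, so that the stages overlapped, and without *Hpx* and *Itih3* as well they were 16.5 to 23.7 and 18.4 to 36.0. No liver sample of these stages was at hand, so low counts of these markers do not show whether fetal liver cells were present. The part of hepatocytes in the stage differences was not tested.

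Of 25 enzymes and membrane proteins of hepatocytes, 5 were tested, of which 3 rose and 2 were not called, with a median of 1.06. *Ass1* rose by 4.27 (edgeR, adjusted p = 0.000472), *Asl* by 1.06 (0.00528) and *Fbp1*, for gluconeogenesis, by 1.48 (0.00916). *Ass1* and *Asl* encode enzymes of the urea cycle that other tissues use to make arginine. In this list 18 of 25 genes had at most 10 counts in every sample. The list is not separate from the hepatocyte markers, since *Cps1*, *Tat*, *Hpd*, *Ttc36*, *Asgr1*, *Slc10a1* and *Cyp2e1* are in both.

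**Figure D4:**
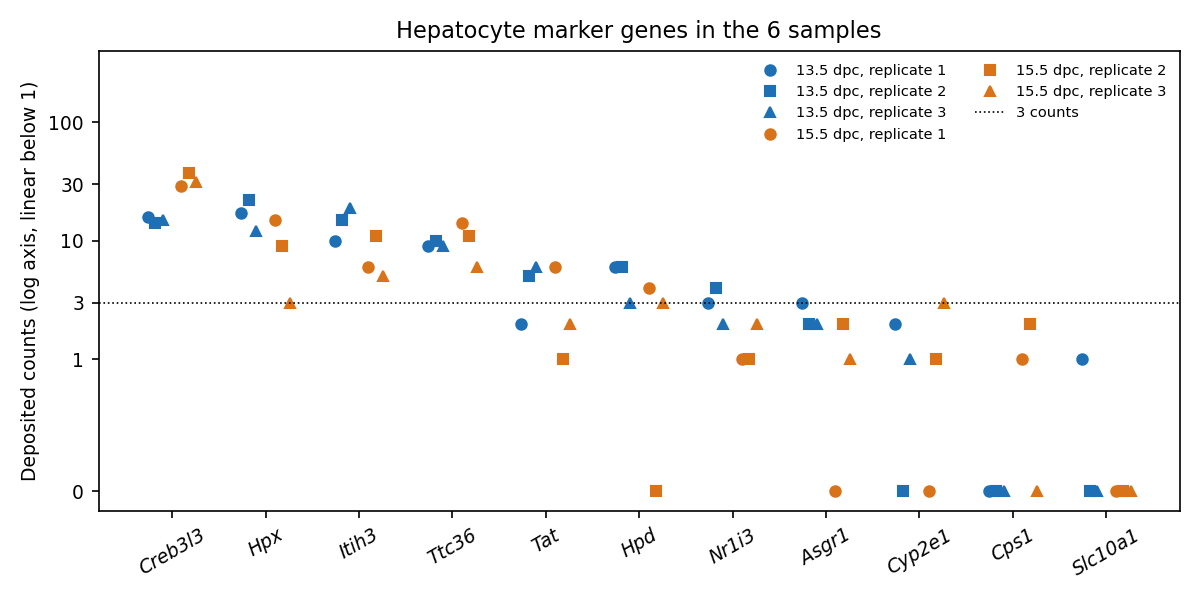
Deposited counts of the 11 hepatocyte marker genes in each sample (log axis, linear below 1), with 13.5 dpc in blue, 15.5 dpc in orange and a dotted line at 3 counts. *Creb3l3* lies at 14 to 37 counts, *Hpx* at 3 to 22, *Itih3* at 5 to 19 and *Ttc36* at 6 to 14. *Asgr1*, *Cyp2e1*, *Cps1* and *Slc10a1* have at most 3 counts in any sample.

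Markers of other cell types were read beside the members. All 8 acinar markers rose, with a median log2 fold change of 2.16, and their summed normalised counts went from 45380 to 53000 at 13.5 dpc to 148100 to 276600 at 15.5 dpc. Of 8 yolk sac and visceral endoderm markers, 4 were tested and 3 rose, *Hnf4a*, *Tdh* and *Spink3*, the first and the last of which the pancreas itself expresses, while *Apoa4* had at most 1 count. Of 8 intestinal markers 2 were tested and 1, *Vil1*, rose, while *Cdx1* and *Cdx2* had at most 5 counts. Of 8 stomach markers 3 were tested, of which 2 rose and 1 fell.

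Of 6 trunk and duct markers tested, 1 rose and 3 fell, with a median of -0.33. Of 7 mesenchymal markers 1 rose and 2 fell, of 6 mesothelial markers 2 rose and 1 fell, where *Krt19*, which rose by 1.01 (edgeR, adjusted p = 0.0217), is also the trunk and duct marker that rose, and of 7 macrophage markers 1 rose and 2 fell. Of 8 glial and neuronal markers 1 rose and 3 fell, and of 9 erythroid markers 2 rose and 3 fell. Of 6 endothelial markers 0 were called, also with DESeq2, and 0 had an unadjusted p under 0.05 with edgeR. The erythroid markers summed to 24220 to 28140 normalised counts at 13.5 dpc and 16100 to 44510 at 15.5 dpc, a sum of genes that moved in opposite directions. The embryonic globin genes fell, *Hbb-y* by 4.69 on the log2 scale (edgeR, adjusted p = 5.83e-05), *Hba-x* by 3.61 (0.000257) and *Hbb-bh1* by 3.73 (0.00038), whereas the adult globin gene *Hbb-bs* rose by 1.35 (0.0293) and *Alas2*, for haem synthesis, by 0.88 (0.0165). The part of these cell types in the fall of *Afp*, *Serpina1a* and *Fgb* was not tested.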

How the data were processed

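RNA Seq was done on 6 samples of wt pancreata. The authors prepared strand-specific poly(A) libraries, aligned single-end reads to mm10 with GSNAP and counted unique reads on Ensembl genes with featureCounts 1.4.6. The deposited counts are raw, and the deposited exon length was used for levels per length. Whether counting used the strand is not given in the sources used here. Gene symbols and coordinates were matched by identifier (35449 of 37224) to an mm10 annotation.

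The analysis used edgeR 4.0.16 (filterByExpr, TMM, quasi-likelihood test, Benjamini-Hochberg, threshold 0.05), limma 3.58.1 and, as an alternative, DESeq2 1.42.0 in R 4.3.3, after tests on simulated data. All 6 samples entered without covariates. log2 CPM used a prior count of 2. Ratios of *Ttr* were compared with an exact permutation test. The labels and the study call the samples biological replicates, so p-values measure the spread between pools of embryos. Pairs of samples of 13.5 dpc differed by 1.57 to 4.59 times the sampling noise (chi-square per gene). Those of 15.5 dpc differed by 13.9 to 59.8 times, so the later samples were less alike. As even the closest pair lay above the sampling noise, none was counted as a repeat. This check cannot exclude closely related material.

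The members and lists were chosen with earlier results of these data known. Beside the 10 genes, lists of 5 or fewer were named in full, and from longer lists the 3 genes of highest level and up to 3 of largest called change. For *Ttr* and *Alb* the 5 most correlated genes were named. *Rbp4*, *Fga*, *Fgg* and the marker genes singled out were chosen after their values were seen. Lists were apolipoproteins, clotting, complement, carriers, hepatocyte enzymes, transcription factors, receptors, iron, ApoB assembly, islet and 12 sets of markers. Some genes of these lists are not reported here, and the counts and medians of lists leave them out. Alternatives were other normalisations, filters and thresholds, DESeq2, the replicate number as a block, removal of a lowess trend with exon length, genes above 1% of counts left out, and each sample left out.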

Additional observations from a re-analysis of the deposited data

How the results depend on the processing

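*Fgb* was called lower under every alternative and *Serpina1a* under all but the study's thresholds, and *Alb* and *Ahsg* kept their direction and were called in none. With library size only, the median over all genes tested moved from -0.01 to -0.22 (log2), and values under that setting are relative to it. The number of the 10 genes called lower ranged from 2 to 4 with 1 sample left out, and the number called higher from 0 to 1, the latter being *Ttr* without 15.5 dpc replicate 2. Under the study's own thresholds (adjusted p at or below 0.1, over 100 normalised counts, fold under 0.6 or over 1.6) 1 gene was lower, *Fgb*, since *Serpina1a* had under 100 counts and *Afp* a smaller fold. The number of *Ttr* ratios without overlap was 4 to 6 with 1 sample left out and 5 with the length trend removed, *Apoa2* being added.

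Deviations of same-numbered samples correlated at 0.22, -0.218 and 0.038, so no pairing by number was seen. This check cannot exclude one, since the deviations at 15.5 dpc also follow exon length. With the replicate number as a block, 4 of the 10 genes were lower and 0 higher, *Apoa1* being added (-0.91, adjusted p = 0.0299 in edgeR), and over all genes 1805 higher and 1662 lower became 1426 and 1250. *Apoa1* was also called with library size only (adjusted p = 0.0227), without a filter (0.0474) and with DESeq2 (0.0374). Over all genes, leaving out 15.5 dpc replicate 2 gave 3924 higher and 3696 lower, and leaving out 15.5 dpc replicate 3 gave 858 and 580. Leaving out 1 sample of 13.5 dpc gave 716 to 796 higher and 519 to 606 lower. With library size only there were 1133 and 2952, and with the length trend removed 2812 and 2292. The cause was not tested.

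Signs turned as follows. With library size only, *Trf* was -0.0521, *Ambp* -0.10, *Nr5a2* -0.15, *Fcgrt* -0.19 and *Tfrc* -0.00939. With the length trend removed, *Apoa2* was -0.0745, and with the replicate block *Nr5a2* was -0.0717. With 1 sample left out, *Apoa2* ranged from -0.12 to 0.52, *Trf* from -0.26 to 0.41, *Nr5a2* from -0.32 to 0.32 and *Fcgrt* from -0.12 to 0.17. Of 51 further named genes, 25 kept direction and call with library size only, the block and each sample left out. With the replicate block the calls of *Foxa2* (adjusted p = 0.0729), *Pltp* (0.0824), *Pros1* (0.0617), *Masp1* (0.0876) and *Itih1* (0.0531) were lost, and with library size only those of *Foxa2* (0.159), *Scarb1* (0.0661), *Dgat2* (0.0527) and *Pyy* (0.0573), all without a change of direction. *Apob* rests on few counts, with 4 or fewer in 5 of 6 samples. For the hepatocyte markers, leaving out *Creb3l3*, *Hpx* and *Itih3* was chosen after seeing the data.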
